A study of Mus musculus with 13 samples.

Results

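Pecam1, Cdh5, Cldn5, Esam, F11r, Jam2, Jam3, Tjp1 and Ocln encode proteins of the borders between endothelial cells (ECs). These 9 genes of adherens and tight junctions were taken by symbol, by a rule that sets no threshold on measured values, from the 24984 genes listed for each tumor EC library and the 24421 genes listed for each sprout EC library. All 9 were listed in every library, and all 9 passed the filter on low counts, which left 13073 genes in the tumor ECs and 14557 genes in the sprout ECs.

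In an adherens junction, VE-cadherin (Cdh5) binds the same protein on the neighboring cell and is tied to the actin skeleton through catenins. In a tight junction, claudins such as Cldn5 and the JAM family close the gap between the membranes, with occludin (Ocln) beside them and the scaffold protein Tjp1 beneath them. Cldn5 is best known from the tight vessels of the brain, and loosened VE-cadherin contacts are a known feature of sprouting and leaky vessels.

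Transcripts were sequenced from 2 kinds of sorted mouse ECs. The tumor ECs were CD31+/CD105+ cells of mammary tumors in C57BL/6J mice, raised by orthotopic injection of E0771, a mammary carcinoma line of the mouse, and each library came from 100 cells. The Apelin-depleted group was shApln tumor cells in Apln-/- mice (n = 3 libraries), and the Apelin wild-type group was shRenilla tumor cells in Apln+/+ mice (n = 6), so that host and tumor cells lost Apelin together. The sprout ECs were CD31+ cells sorted from embryoid bodies in collagen I, all stimulated with VEGFA164 at 30 ng/mL. The group labelled STOP (Apln sense, n = 2) carried a gene trap that interrupts Apln, and the group labelled GO (Apln anti-sense, n = 2) came from sister cells in which Cre had turned the trap around. By the study's legends, the GO embryoid bodies also received Apelin at 1000 nM and the STOP embryoid bodies received DMSO, so the genotype, the added peptide and the retroviral Cre vector of the GO cells cannot be told apart. Both groups descend from 1 trapped stem cell line on a C57BL/6x129 background. Nothing in the labels says whether the libraries of a group came from separate mice or separate cultures, so p-values measure the spread between these libraries, which may be technical. Pecam1 encodes CD31, the antigen used for sorting in both sets, so its transcript was measured in cells already chosen for its protein.

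The genes are placed here on the GRCm38 assembly, also called mm10, by the GENCODE vM21 annotation. The adhesion receptors are Pecam1 (chr11:106654217-106750628, minus strand, 15 exons in its principal transcript), Cdh5 (chr8:104101625-104144511, plus strand, 12 exons) and Esam (chr9:37528078-37538319, plus strand, 7 exons). The JAM family comprises F11r, also named JAM-A (chr1:171437535-171464603, plus strand, 10 exons), Jam2 (chr16:84774123-84825928, plus strand, 10 exons) and Jam3 (chr9:27097384-27155421, minus strand, 9 exons). The tight junction strand and scaffold genes are Cldn5 (chr16:18776847-18778262, plus strand), Ocln (chr13:100496507-100552718, minus strand, 9 exons) and Tjp1 (chr7:65296165-65527781, minus strand, 28 exons). Cldn5 consists of a single exon. Of the 9 genes, Jam3 alone shares exonic sequence with another annotated gene, the antisense transcript Gm48796, and since the strand setting of the counting is not given in the sources used here, reads of the pair cannot be told apart.

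Promoter sequences were found for 4 of the 9 members (F11r, Tjp1, Ocln and Cldn5) in the RefSeq table for GRCm38.p6, which covers 250 bases before to 50 bases after a transcript start. The promoters of Cldn5, F11r and Tjp1 are shown because Cldn5 was called in the sprout ECs while F11r and Tjp1, which also lie at tight junctions, were not. Ocln, likewise a tight junction gene that was not called, is not shown or described here. Capitals mark matches, on either strand, to the GC box (GGGCGG), the CCAAT box (CCAAT) and the core of an ETS site (CGGAAG).
Cldn5, chr16:18776597-18776896, plus strand: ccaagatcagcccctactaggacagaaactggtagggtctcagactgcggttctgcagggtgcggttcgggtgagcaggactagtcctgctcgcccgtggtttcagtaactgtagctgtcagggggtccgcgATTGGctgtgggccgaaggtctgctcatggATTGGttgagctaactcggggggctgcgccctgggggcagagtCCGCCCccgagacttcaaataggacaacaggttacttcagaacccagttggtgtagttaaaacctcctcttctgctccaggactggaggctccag
F11r, chr1:171437311-171437610, plus strand: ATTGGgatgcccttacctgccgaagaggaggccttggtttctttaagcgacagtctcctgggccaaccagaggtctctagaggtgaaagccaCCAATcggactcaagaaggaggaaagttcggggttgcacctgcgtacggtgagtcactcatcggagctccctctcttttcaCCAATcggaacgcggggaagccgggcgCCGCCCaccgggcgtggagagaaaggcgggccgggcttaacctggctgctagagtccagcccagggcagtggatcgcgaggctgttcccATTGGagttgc
Tjp1, chr7:65371195-65371494, minus strand: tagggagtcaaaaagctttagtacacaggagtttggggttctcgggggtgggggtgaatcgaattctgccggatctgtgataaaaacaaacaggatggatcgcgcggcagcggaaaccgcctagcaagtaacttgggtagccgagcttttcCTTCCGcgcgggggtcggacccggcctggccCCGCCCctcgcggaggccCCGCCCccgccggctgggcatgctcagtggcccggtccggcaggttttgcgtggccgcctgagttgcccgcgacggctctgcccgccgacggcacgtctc
The Cldn5 promoter held 1 GC box and 2 CCAAT boxes. The F11r promoter held 1 GC box and 4 CCAAT boxes, and the Tjp1 promoter held 2 GC boxes and 1 ETS core. No match overlapped another in these windows, and the letters of a TATA box (TATAAA) were found in none of them. Over all 32817 promoters of this length in the table, 35.6% held the GC box, 37.4% the CCAAT box, 16.9% the ETS core and 13.6% the TATA box, so each match is a common one and is given as a description. The GC content was 58.3% in the Cldn5 window, 60.3% in the F11r window and 65.3% in the Tjp1 window, with 12, 19 and 31 CpG dinucleotides.

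Total counts ranged from 4661044 to 14455093 in the tumor libraries and from 12327030 to 16804071 in the sprout libraries. The targeted gene was checked first. In the tumor ECs, Apelin-depleted replicates 1 to 3 had 71, 121 and 20 Apln counts, and the wild-type libraries had 4262 to 6619 (log2 fold change -6.70, adjusted p = 6.13e-05 by edgeR's quasi-likelihood test). In the sprout ECs, Apln had 976 and 984 counts in the libraries labelled STOP and 986 and 817 in those labelled GO (log2 fold change 0.24, adjusted p = 0.367 by edgeR), so Apln did not differ by the test. Its CPM were 66.1 and 80.2 against 58.2 and 65.9, slightly above and not below in the libraries labelled STOP, and the sprout groups are named by their labels throughout. Sprout libraries also held pluripotent stem cell transcripts: 11 stem cell markers summed to 6078 and 5827 CPM (counts scaled by TMM-adjusted library size) in the libraries labelled STOP and to 2349 and 3845 CPM in those labelled GO, against 0.915 to 24.0 CPM in the tumor libraries.

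The first question was whether junction genes change in tumor ECs when Apelin is removed. A gene was called when its adjusted p was under 0.05 and its log2 fold change was beyond 1 in either direction (edgeR's quasi-likelihood test over all 13073 genes). None of the 9 members was called, and none had an unadjusted p under 0.05 in edgeR. DESeq2 and limma voom called 0 of the 9 as well. The background was equally low: 0.00765% of all genes were called lower, which is Apln itself, and 0% were called higher, while 2.94% had an unadjusted p under 0.05 on the lower side and 1.87% on the higher side. The median log2 fold change was 0.11 over the 9 members and -0.03 over all genes tested.

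Among the receptors, Cdh5 stood at 646, 1186 and 883 CPM in the Apelin-depleted ECs and at 589 to 867 CPM in the wild-type ECs, with a wild-type median of 748. The ranges overlapped, with 2 of the 3 Apelin-depleted libraries above the wild-type range and the other inside it. The log2 fold change was 0.28 ± 0.26 (SE; 95% interval -0.28 to 0.84). In bulk libraries such as these, fewer cells of a type and less RNA per cell cannot be told apart.

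Pecam1 stood at 1243, 1789 and 1614 CPM in the Apelin-depleted ECs and at 1007 to 1720 CPM (median 1463) in the wild-type ECs. The ranges overlapped over most of their span, and the log2 fold change was 0.11 (95% interval -0.45 to 0.66). Esam, an immunoglobulin-type adhesion molecule of ECs and platelets, stood at 1422, 1430 and 1887 CPM in the Apelin-depleted ECs and at 787 to 1714 CPM (median 1251) in the wild-type ECs. Its libraries overlapped too, with a log2 fold change of 0.35 (95% interval -0.29 to 0.99).

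F11r, the JAM family member of epithelia, ECs and platelets, stood at 901, 842 and 1250 CPM in the Apelin-depleted ECs and at 327 to 1085 CPM (median 795) in the wild-type ECs. Its log2 fold change was 0.38 (95% interval -0.32 to 1.07). Jam2, which ECs of high endothelial venules and other vessels carry, stood at 166, 207 and 210 CPM against 114 to 278 CPM (median 205), so the Apelin-depleted libraries fell inside the wild-type range. Jam3 varied most of the 9 members among the wild-type libraries (coefficient of variation 101%). It stood at 30.6, 13.7 and 35.9 CPM against 8.41 to 89.0 CPM (median 19.6). The highest Jam3 value, in wild-type replicate 3, was far above the next wild-type value of 28.6 CPM. With that library the log2 fold change was -0.15 (95% interval -1.56 to 1.25), and without it the value was 0.59, with no call in either case.

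Cldn5, the main claudin of ECs, stood at 660, 1286 and 1052 CPM in the Apelin-depleted ECs and at 418 to 1131 CPM (median 1016) in the wild-type ECs. Wild-type replicate 5 was the lowest of its group for Cldn5, F11r and Pecam1 alike. The log2 fold change of Cldn5 was 0.15 (95% interval -0.55 to 0.85), and that of Tjp1 was -0.01 (95% interval -0.74 to 0.72), from 77.0 to 169 CPM in the Apelin-depleted ECs and 82.0 to 177 CPM in the wild-type ECs. Ocln was barely detected. Its counts were 6, 0 and 3 in Apelin-depleted replicates 1 to 3, and 4 to 38 in the wild-type libraries. Its log2 fold change of -2.24 had a 95% interval from -5.60 to 1.12, so a difference in Ocln was not detectable at this depth. Of all genes, 1.27% had Apelin-depleted libraries all below and 1.06% all above the wild-type libraries, and 0 of the 9 members did.

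**Figure D1:**
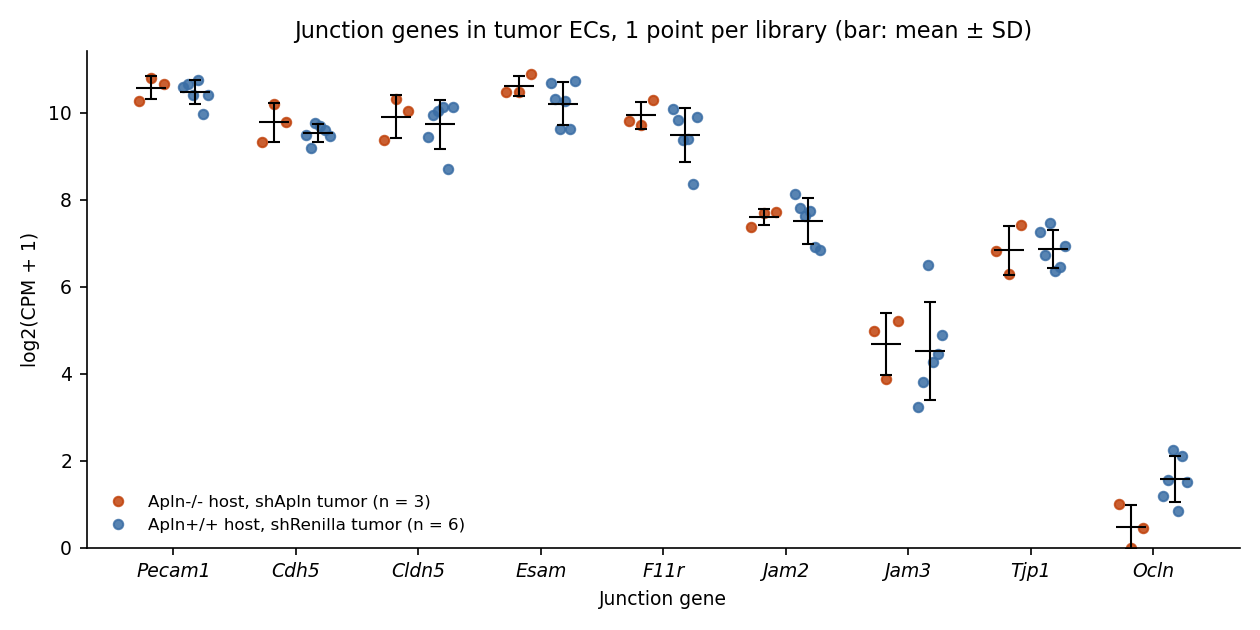
Level of each junction gene in the tumor ECs as log2(CPM + 1), with 1 point per library (3 Apelin-depleted, 6 wild-type) and the mean ± SD of each group as a bar. The points of the 2 groups overlap for all 9 genes, and Ocln lies lowest with 0 to 38 counts per library.

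Markers of other cells differed between tumor libraries. The summed leukocyte markers were 964 CPM in Apelin-depleted replicate 1 and 675 CPM in wild-type replicate 4, against 5.98 to 95.9 CPM in the other libraries, and the summed fibroblast and mural markers were 4658 CPM in wild-type replicate 2, against 72.9 to 365 CPM elsewhere. Without these 3 libraries, again 0 of the 9 members were called. Summed over 15 endothelial markers, the level was 10789 to 14232 CPM in the Apelin-depleted ECs and 7795 to 12650 CPM in the wild-type ECs, so the sorted cells carried the transcripts of their label in all 9 libraries.

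The second question was whether the same genes differ between the sprout ECs labelled STOP and those labelled GO. Here 3 of the 9 members, Cdh5, Cldn5 and Esam, passed both thresholds and were lower in the libraries labelled STOP, and none was called higher (edgeR's quasi-likelihood test). Over all 14557 genes, 3.03% were called on the lower side and 0.852% on the higher side. Without adjustment, 6 members on the lower side and 1 on the higher side had a p under 0.05, against 14.3% and 12.4% of all genes. DESeq2 gave the same counts of 3 and 0. The median log2 fold change of the members was -0.73, against 0.01 over all genes. These values are relative to all genes. Scaled instead to the 15 endothelial markers, which puts the median of all genes at 1.87, none of the 9 members was called lower and 6 were called higher (Pecam1, F11r, Jam2, Jam3, Tjp1 and Ocln). On that scale 0.0893% of all genes were called lower and 87.9% higher, so a call on the higher side is usual there and says nothing particular of the members.

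Cdh5 stood at 122 and 212 CPM in the libraries labelled STOP and at 681 and 634 CPM in those labelled GO. Both values labelled STOP lay far below both values labelled GO. The log2 fold change was -1.98 ± 0.27 (SE), a level 3.94-fold lower (adjusted p = 0.0173, edgeR), and relative to the endothelial markers it was -0.16.

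Cldn5 stood at 17.7 and 33.6 CPM against 96.4 and 122 CPM. It fell by 2.10 on the log2 scale, 4.27-fold, with an SE of 0.33 (adjusted p = 0.0327, edgeR), and its value relative to the endothelial markers was -0.29. Esam stood at 28.9 and 44.7 CPM against 147 and 141 CPM. It fell by 1.97 on the log2 scale, 3.93-fold, with an SE of 0.21 (adjusted p = 0.00621, edgeR), and relative to the endothelial markers it stood at -0.15. In all 3 genes STOP replicate 2 was above STOP replicate 1, as it was in the summed endothelial markers, which were 520 and 669 CPM in the libraries labelled STOP and 2096 and 1958 CPM in those labelled GO. Leaving out either GO library left 1 of the 3 calls, Esam, while leaving out either STOP library left all 3.

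Pecam1 and F11r changed less. Pecam1 stood at 139 and 169 CPM against 264 and 273 CPM, and F11r at 119 and 114 CPM against 185 and 201 CPM, and neither pair of groups overlapped. Scaled to all genes, Pecam1 was lower in the libraries labelled STOP by a log2 fold change of -0.80 ± 0.15 (SE; adjusted p = 0.0244, edgeR), but scaled to the endothelial markers it was higher by 1.05. F11r was lower by a log2 fold change of -0.73 ± 0.13 (SE; adjusted p = 0.0222, edgeR) on the first scale and higher by 1.15 on the second. With no fold threshold, 5 of the 9 members were therefore below an adjusted p of 0.05, all on the lower side when scaled to all genes, against 4.3% of all genes on the lower side and 1.92% on the higher side.

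Tjp1, which is not limited to ECs, stood at 344 and 315 CPM in the libraries labelled STOP and at 510 and 468 CPM in those labelled GO. Its log2 fold change of -0.57 (95% interval -0.89 to -0.24) missed the threshold with an adjusted p of 0.0548 in edgeR, and it was 1.31 relative to the endothelial markers. Jam2 stood at 190 and 183 CPM against 77.6 and 134 CPM. Its log2 fold change was 0.82 (95% interval 0.19 to 1.45, adjusted p = 0.119, edgeR), and it was 2.69 relative to the endothelial markers. Leaving out 1 library moved it between 0.48, without GO replicate 1, and 1.27, without GO replicate 2, and only the latter passed both thresholds (adjusted p = 0.00799, edgeR).

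Jam3 stood at 28.3 and 34.5 CPM against 39.1 and 33.0 CPM, with overlapping groups and a log2 fold change of -0.20 (95% interval -0.62 to 0.22), which was 1.65 relative to the endothelial markers. Ocln stood at 11.3 and 8.88 CPM against 8.08 and 8.72 CPM, from 108 to 167 counts per library, and its log2 fold change was 0.27 (95% interval -0.35 to 0.88), which was 2.16 relative to the endothelial markers. The groups were apart, scaled to all genes, in 6 members on the lower side (Pecam1, Cdh5, Cldn5, Esam, F11r and Tjp1) and in 2 on the higher side (Jam2 and Ocln). With 2 libraries a group this is frequent, since 29.6% of all genes were apart on the lower side and 31% on the higher side. Scaled to the endothelial markers, the fitted values of Pecam1, F11r, Jam3 and Tjp1 turned from negative to positive.

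**Figure D2:**
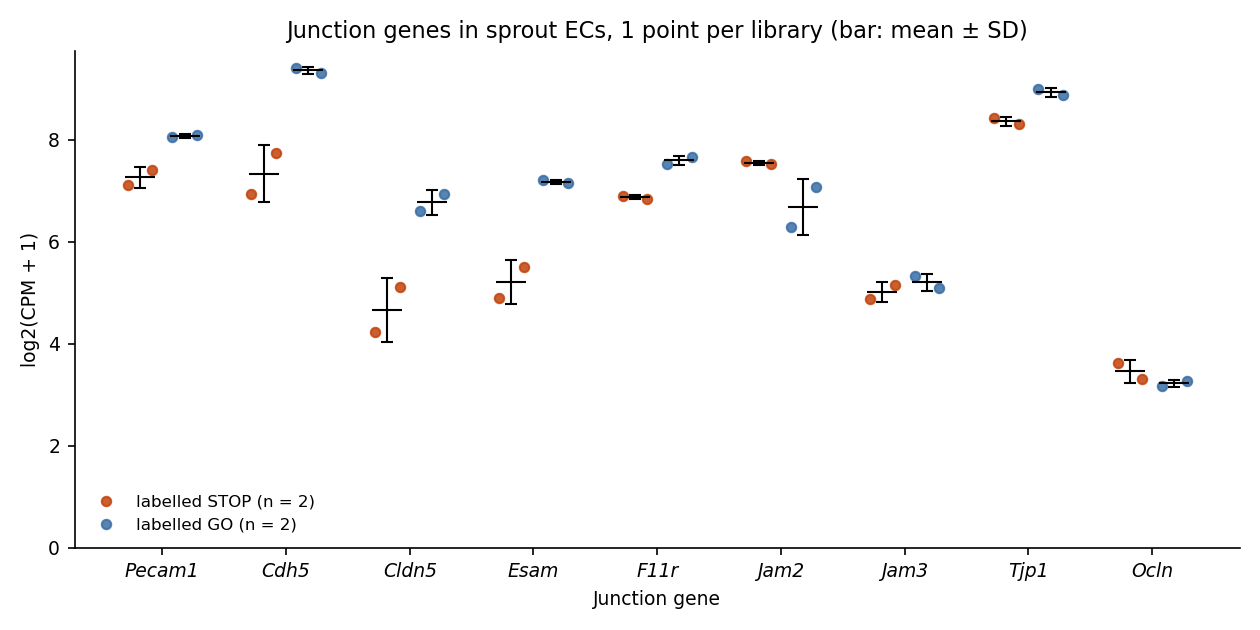
Level of each junction gene in the sprout ECs as log2(CPM + 1), with 1 point per library (2 labelled STOP, 2 labelled GO) and the mean ± SD of each group as a bar. The widest gaps between the groups are those of Cdh5, Cldn5 and Esam, while the Jam3 groups overlap.

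The deposited RSEM values were read beside the HTSeq counts. Cdh5 had 42.6 and 72.8 TPM, a unit scaled for transcript length, in the libraries labelled STOP and 280 and 233 TPM in those labelled GO, Cldn5 had 17.6 and 33.0 against 114 and 130 TPM, and Esam had 21.9 and 33.3 against 131 and 114 TPM. Jam2 ran the other way, with 54.5 and 51.5 TPM against 25.9 and 40.0 TPM. Small differences were not the same by both measures, which differ in counting and in scaling: by TPM the Ocln groups overlapped (5.03 and 3.71 against 4.14 and 4.07 TPM) and the Jam3 groups were apart (20.3 and 23.9 against 33.0 and 25.1 TPM). With rounded RSEM expected counts in place of the HTSeq counts, the count of members called lower stayed at 3.

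The 2 sets of ECs were then compared by the difference of their effects, which is the log2 fold change in the tumor ECs minus that in the sprout ECs, over 15762 genes. No member passed an adjusted p of 0.05 in edgeR, against 0.00634% of all genes called lower and 0% called higher. Before adjustment, 4 of the 9 members had a p under 0.05 on the higher side and 0 on the lower side, against 2.92% and 1.96% of all genes. The difference was 2.21 ± 0.43 (SE) for Cdh5 (adjusted p = 0.111, edgeR), 2.28 ± 0.49 for Esam (adjusted p = 0.128, edgeR) and 2.20 ± 0.56 for Cldn5 (adjusted p = 0.245, edgeR). DESeq2 called 2 of them, Cdh5 with an adjusted p of 0.00257 and Esam with an adjusted p of 0.0191. Over the alternatives tried, the adjusted p of Cdh5 ranged from 0.00257 to about 1 and that of Esam from 0.0191 to about 1, so whether the difference passes depends on the tool. The size of the difference depends on the scaling. Scaled to the endothelial markers, the difference was 0.073 for Cdh5, 0.21 for Esam and 0.13 for Cldn5, none of them called, while Jam2 (-2.94, adjusted p = 0.0174, edgeR) and Tjp1 (-1.66, adjusted p = 0.0463, edgeR) were called lower. On that scale 25.1% of all genes were called lower and 0% higher, with a median of -2.21, so 2 of 9 members is close to the share of all genes. Protocol, gate and tissue differ between the sets as well.

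**Figure D3:**
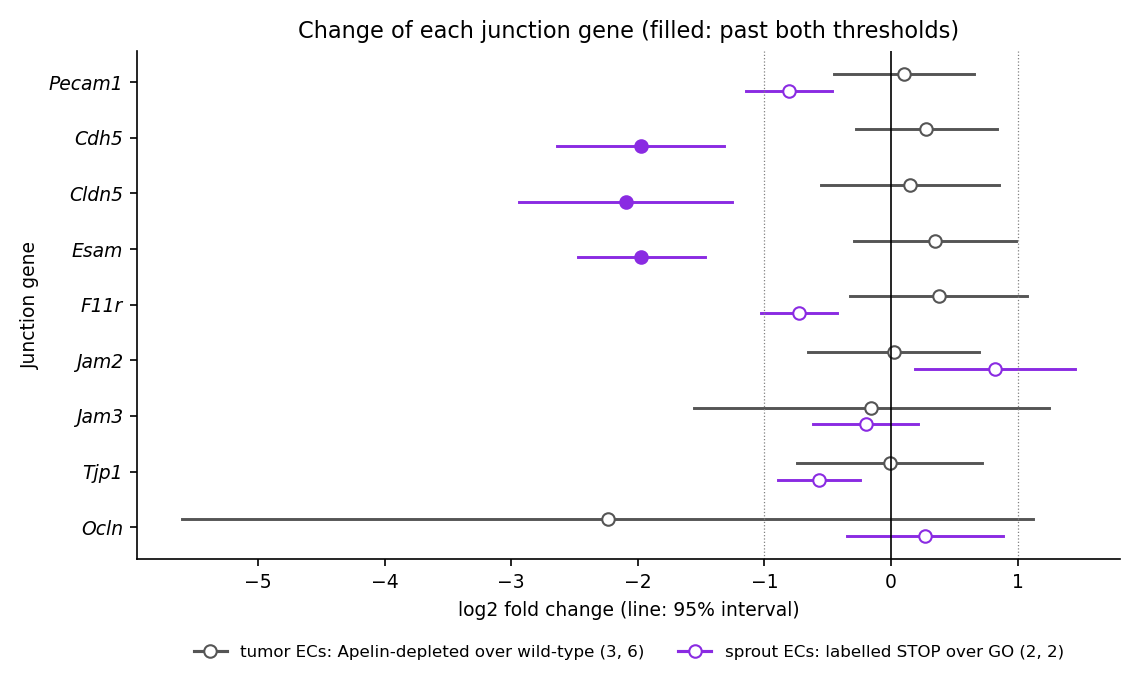
Log2 fold change of each junction gene, scaled to all genes, with its 95% interval, in the tumor ECs (Apelin-depleted over wild-type, 3 against 6 libraries) and in the sprout ECs (labelled STOP over labelled GO, 2 against 2). Filled points passed both thresholds: Cdh5, Cldn5 and Esam in the sprout ECs, at -1.98, -2.10 and -1.97, none of which was called when scaled to endothelial markers, where Pecam1, F11r, Jam3 and Tjp1 turned positive.

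Levels of different genes were compared per length, as CPM per kilobase of the RSEM effective length, within each library. RSEM lengths came from the sprout libraries only and were used for the tumor ECs as well, whose protocol differs. Esam and Cldn5 held the first 2 places in 8 of the 9 tumor libraries, Ocln was last in all 9, and Cdh5 took rank 4 or 5. In the sprout ECs Cdh5 was first in both libraries labelled GO and in STOP replicate 2, and took rank 5 in STOP replicate 1, where Tjp1 was first. In STOP replicate 2 the per-length levels of Cldn5 and Esam were 24.6 and 24.8 CPM per kilobase, below F11r at 46.9 and Jam2 at 38.3. In GO replicate 2 Cldn5 and Esam were at 89.5 and 78.3, near F11r at 82.6 and well above Jam2 at 28.0. In the libraries labelled GO, Pecam1, Cldn5, Esam, F11r and Tjp1 lay between 68.4 and 89.5. Of these, F11r took rank 4 in both libraries and the others changed places from one library to the other, so their order there was not resolved.

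The members were also set against Cdh5 within each library, which puts the differences above on another scale and is no independent result. Cdh5 itself lay at percentile 1.28 of the log2 fold changes of all genes in the sprout ECs. The log2 ratio of Esam to Cdh5 per kilobase was -0.95 and -1.12 in the libraries labelled STOP and -1.09 and -1.04 in those labelled GO. That of Cldn5 was -1.26 and -1.14 against -1.29 and -0.85. Both ratios overlapped between the groups, and those of the other 6 members were higher in the libraries labelled STOP. Nothing particular to the members follows from the 6, since the CPM ratio to Cdh5 was apart on the higher side in 95.2% of all other genes tested and on the lower side in 0.378%. The log2 ratio of Pecam1 was 0.48 and -0.03 against -1.07 and -0.92, that of F11r was 0.66 and -0.20 against -1.19 and -0.96, and that of Tjp1 was 0.70 and -0.23 against -1.21 and -1.24. The ratio of Jam2 was 0.36 and -0.49 against -3.41 and -2.52, that of Ocln was -3.11 and -4.26 against -6.07 and -5.86, and that of Jam3 was -1.07 and -1.59 against -3.09 and -3.23. A permutation of 2 against 2 libraries cannot reach a p of 0.05, so these ratios are given as a description.

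**Figure D4:**
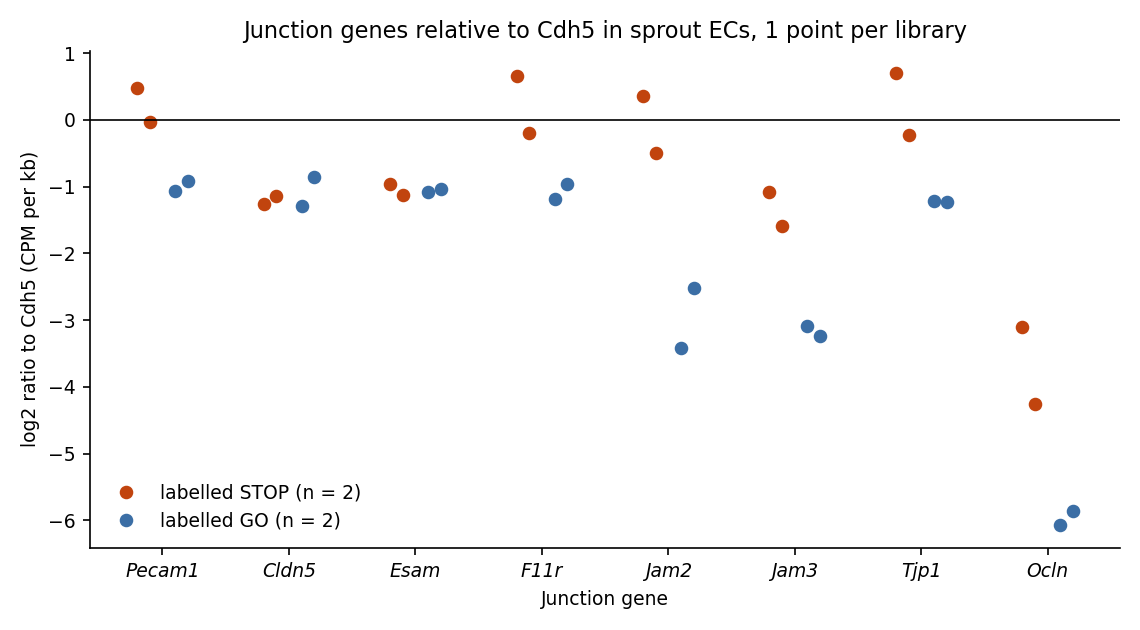
Log2 ratio of each junction gene to Cdh5, in CPM per kilobase, in the 4 sprout EC libraries (1 point per library; the line at 0 marks the Cdh5 level). Cldn5 and Esam keep overlapping ratios in both groups, at -1.29 to -0.85, while the other 6 genes lie higher relative to Cdh5 in the libraries labelled STOP, as did 95.2% of all other genes tested.

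The share of each gene in the summed level of the JAM family is given for the sprout ECs as a description, with no test, and Jam2 itself was not called there (adjusted p = 0.119, edgeR). The summed pluripotent stem cell markers moved with the same groups, at 6078 and 5827 CPM in the libraries labelled STOP against 2349 and 3845 CPM in those labelled GO, and their part in these shares was not tested. F11r held 47.2% and 45.5% of the family's summed level per kilobase in the libraries labelled STOP and 67.5% and 64.6% in those labelled GO. Jam2 held 38.5% and 37.1% against 14.5% and 21.9%, and Jam3 held 15.8% ± 2.23 (SD, n = 2) against 15.8% ± 3.28. In the tumor ECs F11r held 88.1% ± 0.954 (SD, n = 3) in the Apelin-depleted libraries and 84.0% ± 5.86 (SD, n = 6) in the wild-type libraries, with overlapping ranges. Shares within a library do not depend on its scaling, but those of the tumor ECs rest on lengths taken from the sprout libraries. Wild-type replicate 3 had the highest Jam3 share of the tumor libraries, at 12.9%.

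**Figure D5:**
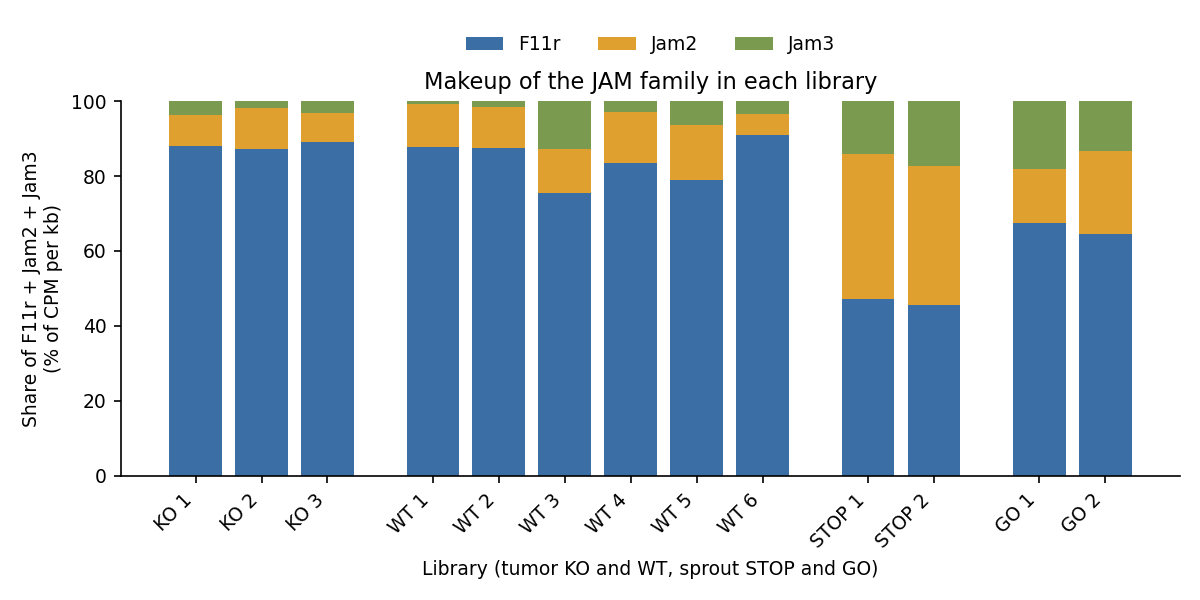
Share of F11r, Jam2 and Jam3 in their summed CPM per kilobase, as a stacked bar of 100% for each of the 13 libraries. F11r takes 75.6% to 91.0% in the tumor ECs, 64.6% to 67.5% in the sprout ECs labelled GO and 45.5% to 47.2% in those labelled STOP.

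Genes that work beside the members were read from lists in both sets of ECs. No gene of any junction list was called in the tumor ECs by edgeR. Their median log2 fold changes in the tumor ECs were 0.08 for 14 adherens junction partners, -0.02 for 17 tight junction partners, 0.57 for 5 gap junction genes, 0.03 for 10 other endothelial border receptors and 1.10 for the 4 epithelial and stem cell junction genes that could be tested. Scaled to the endothelial markers, the medians were -0.27, -0.33, 0.09, -0.30 and 1.02 in the same order, with that of all genes at -0.37. No listed gene was called on that scale either. At an unadjusted p under 0.05 in edgeR, 1 gene of the last list was on the higher side and none of the other lists had any. Of all genes, 1.87% were on the higher side and 2.94% on the lower side at that level. All genes of the last list summed to 211 CPM in Apelin-depleted replicate 1, against 14.6 to 26.5 CPM in the other tumor libraries.

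In the sprout ECs, 1 of 15 adherens junction partners was called, against 3.03% of all genes on the lower side. It was Ptprb, which encodes the phosphatase VE-PTP that associates with VE-cadherin. Its log2 fold change was -1.95 ± 0.16 (SE), from 16.1 CPM in the libraries labelled STOP against 62.3 CPM in those labelled GO (adjusted p = 0.00242, edgeR). The catenins were not called: Ctnnb1 had -0.34, Ctnna1 -0.02 and Ctnnd1 -0.51. The list's median was -0.14. Of 18 tight junction partners, 1 was called, against the same 3.03%. It was Cgnl1 (paracingulin), with -1.28 ± 0.17 (SE), from 103 against 249 CPM (adjusted p = 0.00936, edgeR), and the list's median was 0.07. Ctnnb1, Ctnna1 and Ctnnd1 were named after their values were seen, as were Gja1, Gja4, Gja5, Robo4 and Cdh1. Scaled to the endothelial markers, neither list had a gene called lower, and 12 of the 15 and 17 of the 18 were called higher, against 87.9% of all genes.

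Of 7 gap junction genes none was called, and their median was -0.93. Without adjustment, 2 on the lower side and 1 on the higher side had a p under 0.05 in edgeR, against 14.3% and 12.4% of all genes. Gja1, the most widespread connexin, had a log2 fold change of -0.93 with an adjusted p of 0.0288 in edgeR, short of the fold threshold. Gja4 (-1.85, adjusted p = 0.0888, edgeR) and Gja5 (-1.96, adjusted p = 0.214, edgeR) fell more but did not pass. Scaled to the endothelial markers, no gap junction gene was called lower and 3 were called higher (against 87.9% of all genes), with a median of 0.92. Of the 10 other border receptors, scaled to all genes, 7 were called lower and none higher, against 3.03% and 0.852% of all genes, with a median of -1.69. Scaled to the endothelial markers, none was called lower and 3 were called higher (against 87.9% of all genes), with a median of 0.13. The 4 with the lowest p were Emcn (endomucin, -2.50), Icam2 (a leukocyte ligand, -2.03), Mcam (CD146, -1.57) and S1pr1 (a sphingosine-1-phosphate receptor that steadies junctions, -2.05). Emcn and Robo4 of this list are also among the endothelial markers.

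The 15 epithelial and stem cell junction genes stood on the other side. None was called, 14 of the 15 had a positive log2 fold change, 9 had an unadjusted p under 0.05 in edgeR on the higher side (against 12.4% of all genes), and the median was 0.68. Scaled to the endothelial markers, all 15 were called higher, as were 87.9% of all genes. Cdh1 (E-cadherin) had 440 CPM in the libraries labelled STOP against 262 CPM in those labelled GO, a log2 fold change of 0.75. The 15 genes summed to 1704 and 1236 CPM against 858 and 986 CPM.

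Markers of other cells moved with these groups. All 15 endothelial markers were lower in the libraries labelled STOP and 14 were called, against 3.03% of all genes on the lower side, with a median of -1.87. All 11 pluripotent stem cell markers were higher and 2 were called, against 0.852% of all genes on the higher side, with a median of 0.88. Fibroblast and mural markers summed to 463 and 2603 CPM in the libraries labelled STOP and to 2829 and 619 CPM in those labelled GO, so their sums varied widely within each group. Of their 8 genes, 7 were on the lower side, with a median of -0.47, and none was called. Leukocyte markers summed to 83.4 and 47.8 CPM in the libraries labelled STOP and to 40.8 and 63.4 CPM in those labelled GO. Platelet and megakaryocyte markers, of cells that also carry Esam, F11r and Pecam1, summed to 9.48 and 4.56 CPM against 21.8 and 31.6 CPM. Both of the 2 that could be tested were on the lower side with an unadjusted p under 0.05 in edgeR, against 14.3% of all genes, and neither was called. Epithelial markers, which include Cdh1, summed to 1064 and 819 CPM against 679 and 633 CPM. The part of these other cells in the fall of Cdh5, Cldn5 and Esam was not tested. Relative to the endothelial markers the 3 genes stood at -0.16, -0.29 and -0.15, with SEs of 0.34, 0.31 and 0.31. Most of those markers fell themselves, so this scale cannot tell fewer endothelial cells from a shared fall of endothelial genes.

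Among the tumor libraries, the members did not vary as one block. Over the 9 libraries, with group means removed, 22 of the 36 pairs of members had a positive Pearson correlation of log2(CPM + 1), and the median was 0.17. The pairs share libraries and depth, so this is a description. The highest was Esam with F11r, at 0.84, and the lowest Pecam1 with Ocln, at -0.81, where Ocln rests on few counts. Genes that followed Cdh5 and Cldn5 were sought with group means kept, so their r includes any difference between the groups. The 5 tested genes whose levels followed Cdh5 most closely over the 9 tumor libraries were Rpl27a (r = 0.94), Adcy4 (0.93), B3gntl1 (0.93), Mcm4 (0.92) and Tmem200b (0.92). For Cldn5 they were Fbxo28 (0.98), Grb2 (0.95), Sh3glb1 (0.94), Nnt (0.94) and Cpped1 (0.94). With 9 libraries and 13073 genes searched, high values of r occur among many genes, and no other member was among these 10.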

How the data were processed

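RNA-Seq counts of 9 tumor EC and 4 sprout EC libraries were used, grouped by the sample labels. For the tumor ECs the authors deposited whole-number counts per gene from featureCounts (Subread 1.6.2). The study's methods name STAR as the aligner, whereas the submitters' processing notes name Bowtie2 2.3.4.1, after trimming with Trim Galore 0.5.0. For the sprout ECs the authors aligned with STAR 2.5.0a and deposited HTSeq 0.6.1p1 counts. Their closing lines of unassigned reads were left out of library sizes, and reads not uniquely aligned made up 42.6% to 49.6% of the tallied reads. The authors also deposited RSEM 1.2.25 expected counts (rounded here before testing) and RSEM TPM for the sprout ECs. The notes name the mm10 build.

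Counts were tested with edgeR 4.0.16 in R 4.3.3 (quasi-likelihood F-test with robust dispersions, TMM scaling, filterByExpr at its minimum count of 10, p-values adjusted by Benjamini-Hochberg over all genes tested), in 1 fit per set of ECs and 1 joint fit for the difference of effects. CPM use the TMM-scaled library sizes. Alternatives were DESeq2 1.42.0, its size factors, scaling by the geometric mean of 15 endothelial markers, other filters, no fold threshold, limma 3.58.1 voom, a replicate block and each library left out. The fits were also run on simulated data, with imposed changes far larger than those of most members in the tumor ECs. These runs do not show whether such small changes would be detected. Replicates of a group differed by more than counting error, so depth was not the only limit on precision.

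The rule for the members sets no threshold on these data, but the members, the gene lists and the tests were chosen with earlier results of these data known. Named in the text were the 9 members, Apln, in each junction list at most the 4 called genes of lowest p per direction, and the 5 genes most correlated with Cdh5 and with Cldn5. Outside this rule, 3 catenins, Gja1, Gja4, Gja5, Cdh1 and Robo4 were named after their values were seen.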

Additional observations from a re-analysis of the deposited data

Results flagged for a closer look

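Each member was scanned in the 6 wild-type tumor libraries, the only group with more than 3 libraries, for a library far from the others. Jam3 in wild-type replicate 3, at 89.0 CPM, stood apart from the next library by 0.75 of the group's whole range, above Dixon's 95% critical value of 0.625 for 6 samples. This was 1 of the 9 groups of values scanned, and chance gives such a gap in about 1 in 20 groups of normally distributed values. The scan was made on CPM and not on the log2 scale, where a high value stands out less. The Jam3 values were skewed (median 19.6 CPM), so the flag depends on the scale and is a description. In that library the platelet and megakaryocyte markers summed to 96.2 CPM and the epithelial and tumor cell markers to 66.8 CPM, each the highest of the 9 tumor libraries. The fibroblast and mural markers summed to 238 CPM there. Their part in the Jam3 value was not tested.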

How the results depend on the processing

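In the tumor ECs 0 of the 9 members were called under all 18 alternatives. Over these, Ocln ranged from -3.78 to -1.63, and the other members lay between -0.60 and 0.59, both ends in Jam3. The highest values of Cldn5, F11r, Cdh5 and Esam were 0.51, 0.50, 0.47 and 0.46. Some signs turned. Scaled to the endothelial markers, which moved the median of all genes to -0.37, Cdh5 was -0.089, Cldn5 -0.17, Jam2 -0.26 and Pecam1 -0.20. With the replicate block Jam2 was -0.26 and Jam3 0.18, and with limma voom Jam3 was 0.26 and Tjp1 0.020. With each library left out, Cldn5 ranged from -0.076 to 0.38, Jam2 from -0.092 to 0.16, Jam3 from -0.44 to 0.59, Pecam1 from -0.014 to 0.24 and Tjp1 from -0.35 to 0.22. In the sprout ECs the 3 calls on the lower side stayed 3 with DESeq2, its size factors, both filters and RSEM counts. There were 5 with no fold threshold and 0 with endothelial marker scaling, which gave 6 on the higher side, with Jam2 at 2.69, Ocln at 2.16, F11r at 1.15, Jam3 at 1.65, Pecam1 at 1.05 and Tjp1 at 1.31. With each library left out the count ranged from 1 to 3 on the lower side and from 0 to 1 on the higher side, the 1 being Jam2 without GO replicate 2. A fit with 1 library in a group assumes that it varies like the others.

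The replicate numbers pair no samples by the labels. With the replicate block, 2 of the 3 calls were left, with Cdh5 at an adjusted p of 0.0548 in edgeR, and calls over all sprout genes went from 441 lower and 124 higher to 41 and 3. Same-numbered sprout libraries deviated in opposite directions (r = -0.43), so a block with crossed numbers was added after seeing the data, with 3 members and 933 lower and 302 higher genes called. With 2 libraries a group, crossed pairs then deviate together by construction, which favors more calls. The 3 calls of that fit are therefore no further support. In the tumor ECs the block gave 2 genes lower and 0 higher in place of 1 and 0. DESeq2 called 97 lower and 19 higher tumor genes and no filter 7 and 9.

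For the difference of effects, DESeq2 called 2 members on the higher side. Endothelial marker scaling, added after seeing the data, called 2 on the lower side (and 25.1% of all genes), with F11r at -1.03, Pecam1 at -1.25 and Tjp1 at -1.66. Jam3 was -0.02, with 0.32 under the block and -0.29 to 0.74 with each library left out. DESeq2 called 22 genes lower and 53 higher over all genes, against 1 and 0. The causes of these shifts were not tested. At the depth of these libraries Ocln in the tumor ECs, with 0 to 38 counts, gives no usable fold change.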
